A study of Rattus norvegicus with 8 samples.

Results

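Fos, Fosb, Fosl2, Jun, Junb, Egr1, Egr2, Arc, Nr4a1 and Ier2 are immediate early genes, and their transcripts were measured in the lumbosacral spinal cord of rats after chronic water avoidance (WA) stress. Members were taken as the gene spots whose gene name in the array files is 1 of these 10 symbols. All 10 had a probe, giving 12 probes on 63 spots, out of 16429 gene symbols on the array. Egr1 and Fosl2 each had 2 probes.

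All 8 animals were male Wistar rats, 12 weeks old by the labels, and the tissue was spinal segment L6S1. The stressed group (n = 4) stood on a small platform surrounded by water in daily sessions over 10 days, and its tissue was taken 24 hours after the last session. The control group (n = 4) had no WA stress and, by the paper's abstract, was handled for 10 days. Each rat was hybridised to its own array. The meninges were removed at dissection and the whole segment was used, so in this bulk tissue fewer cells of a type and less RNA per cell cannot be told apart. All arrays lay on 1 slide, the stressed rats in its first row and the controls in its second, so slide row and group cannot be told apart. Stressed and control rats of the same number shared a slide column.

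Immediate early genes are transcribed within minutes of a stimulus from factors already present in the cell, without new protein synthesis, and most of their mRNAs are short-lived. FOS and JUN family proteins pair into the transcription factor AP-1, EGR proteins are zinc finger factors, NR4A1 is an orphan nuclear receptor, and ARC acts at synapses in the removal of AMPA receptors. In the spinal cord, c-Fos has long been used as a marker of dorsal horn neurons activated by noxious or visceral input. Fosb differs from Fos in that its truncated splice form, deltaFosB, yields a stable protein that builds up over repeated stimulation.

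Promoters of immediate early genes can carry binding sites for factors that respond to a stimulus before any new protein is made. The CArG box binds serum response factor (SRF), and the cAMP response element TGACGTCA binds CREB. RefSeq gave a promoter for 7 of the 10 members in the build GRCr8, and the 250 bases before the start were searched on both strands. Egr1 and Egr2 held a CArG box, against 1.49% of all 27457 promoters, and Ier2 held TGACGTCA, against 1.68%. The shorter core TGACG, which lies within TGACGTCA, was in 5 of the 7, against 18.8% of all promoters. Fosb and Fosl2 held neither a CArG box nor TGACGTCA nor TGACG in these bases. Of the other letters searched, the AP-1 site TGANTCA was in 0 of the 7, against 6.41% of all promoters. The EGR site GCGNGGGCG was in 2, against 4.51%, and TATAAA in 2, against 13.2%. The Egr1 and Ier2 promoters are shown as examples of the CArG box and of the full element TGACGTCA, which are in capitals, and they were not measured here. Egr1 is chr18:26736828-26737077 on the plus strand, with CArG boxes at 105 to 96 and 83 to 74 bases before the start, and its TGACG cores, at 135 to 131 and 66 to 62 bases before the start, are not capitalised. Ier2 is chr19:40399123-40399372 on the plus strand, with its site at 66 to 59 bases before the start.
Egr1 promoter: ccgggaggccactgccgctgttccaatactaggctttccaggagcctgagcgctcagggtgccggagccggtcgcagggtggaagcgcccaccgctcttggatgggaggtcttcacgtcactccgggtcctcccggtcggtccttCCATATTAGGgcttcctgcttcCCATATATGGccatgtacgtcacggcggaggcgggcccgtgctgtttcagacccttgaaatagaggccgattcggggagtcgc
Ier2 promoter: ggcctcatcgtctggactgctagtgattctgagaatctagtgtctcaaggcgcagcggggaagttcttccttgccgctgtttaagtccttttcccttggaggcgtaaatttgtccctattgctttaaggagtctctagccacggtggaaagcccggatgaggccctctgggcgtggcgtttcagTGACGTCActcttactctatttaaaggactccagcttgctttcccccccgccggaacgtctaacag

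Signals are given as log2 of the array's processed signal relative to that array's 75th percentile, so 0 is the 75th percentile, and differences are stressed minus control. Probe levels differ with probe sequence and are not compared between genes. A probe was called at an adjusted p below 0.1 (limma, Benjamini-Hochberg over all 23677 probes tested). That rule called 885 probes, 655 higher and 230 lower, and quantile normalization gave 685 higher and 495 lower. On each array 22998 to 24064 probes exceeded background clearly.

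Control replicate 2 stood apart from the other controls, and it touches most results below. The 5′ minus 3′ index, the median log2 difference between the most 5′ and the most 3′ probe of 1887 transcripts after centring, was -0.30, 0.22, -0.30 and -0.18 in controls 1 to 4. In stressed rats 1 to 4 the index was 0.17, 0.15, 0.17 and 0.09. Control replicate 2 therefore lay beyond the stressed rats, whereas the other controls all lay below them. The exact two-sided permutation test between the groups gave p = 0.143 (n = 4 per group). With so few rats that test cannot show that the index was equal in the groups. Without control replicate 2, 42.4% of all tested probes were called, against 3.74% with it. Differences without that rat are given beside those of all 8 rats.

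None of the 10 genes and none of the 12 probes was called, where 3.74% of all probes were. At an unadjusted p below 0.05 there were 2 of the 12 probes, against 20.3% of all tested. No member probe separated the groups, whereas 12.1% of all probes had groups that did not overlap. Of the 10 genes, each taken by its brightest probe, 6 were higher and 4 lower in stressed rats, with a median log2 difference of 0.05 beside 0.06 over all probes. The median size of the difference was 0.13 over the 10 genes by brightest probe and 0.17 over all probes. The set of all probes includes the dimmer probes of a gene, so these medians were not taken by the same rule. The members closest to 0 were Arc, Jun and Junb. Those with the largest differences were Fosb and the dimmer Egr1 probe.

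**Figure D1:**
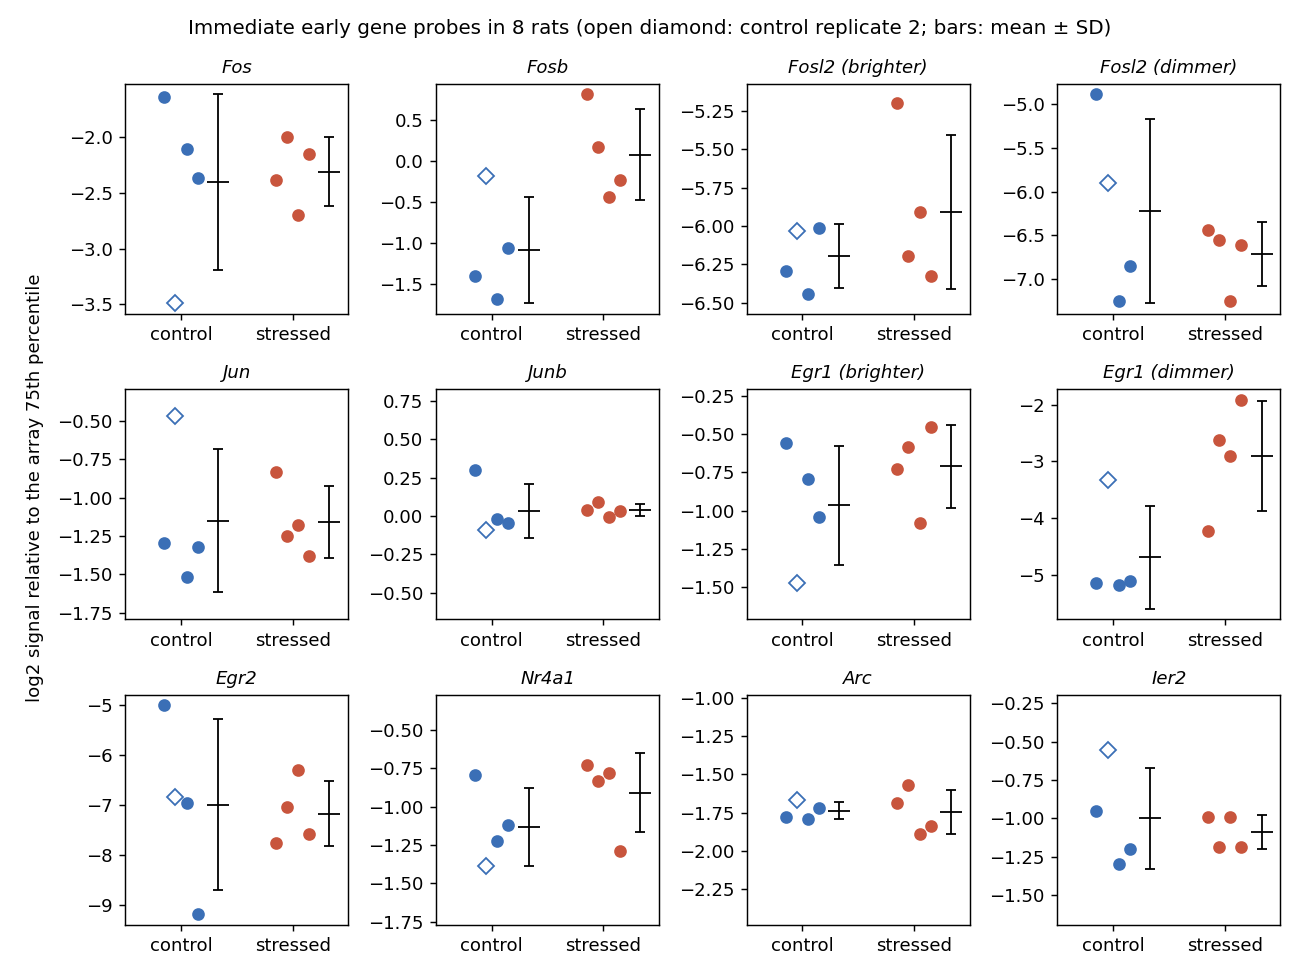
Log2 signal relative to the array 75th percentile (vertical axes, a separate scale in each panel) for the 12 probes in control (blue) and stressed (red) rats; the open diamond is control replicate 2 and bars give mean ± SD, n = 4. Arc and Junb stayed within a narrow range in both groups, for Fosb and the dimmer Egr1 probe all 4 stressed rats were above controls 1, 3 and 4, and Egr2 was widely scattered.

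Fos, the AP-1 partner most used as an activity marker, was read by a probe at chr6:109561941-109562000 on the plus strand (rn4). Its log2 signal was -1.63, -3.49, -2.11 and -2.37 in controls 1 to 4, and -2.38, -1.997, -2.70 and -2.15 in stressed rats 1 to 4. All 4 stressed rats lay inside the control range, whose ends were controls 1 and 2. The difference was 0.09 (SE 0.37, adjusted p = 0.901, limma), with a 95% confidence interval of -0.77 to 0.95. With that last rat left out it was -0.27 (SE 0.22, adjusted p = 0.388, limma).

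Fosb, the paralogue of Fos, was read by a probe at chr1:78668672-78668731 on the minus strand (rn4). Its sequence is shown because this gene gave the largest difference of any member by its brightest probe. Whether these bases lie in the stretch missing from deltaFosB was not determined here.
Fosb probe: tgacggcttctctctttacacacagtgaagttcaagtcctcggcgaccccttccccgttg
The log2 signal of Fosb was -1.40, -0.19, -1.69 and -1.07 in controls 1 to 4, and 0.82, 0.18, -0.44 and -0.23 in stressed rats 1 to 4. Stressed rats 1 and 2 were above all controls, and stressed rats 3 and 4 were above every control except control replicate 2. The difference was 1.17 (SE 0.38, 95% confidence interval 0.30 to 2.04), a 2.25-fold higher mean signal, with an adjusted p of 0.165 (limma) and an exact two-sided permutation p of 0.0857. The smallest p that 4 rats against 4 can give in that test is 0.0286. Without control replicate 2 the groups did not overlap, and the difference was 1.47 (SE 0.31, adjusted p = 0.0129, limma). In that comparison 43.8% of all probes had groups that did not overlap and 42.4% were called. The 2 spots of this probe were 1.09 apart on control replicate 3.

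Fosl2, which encodes the FOS relative FRA2, was dim, and its 2 probes differed in opposite directions. Both target the same transcript and are shown for that reason, the brighter starting at base 731 of it and the dimmer at base 171.
Fosl2 brighter probe: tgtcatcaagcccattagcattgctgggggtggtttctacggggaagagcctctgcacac
Fosl2 dimmer probe: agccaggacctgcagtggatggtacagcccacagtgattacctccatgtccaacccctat
The brighter probe read -6.30, -6.03, -6.44 and -6.01 in controls and -5.20, -6.20, -5.91 and -6.33 in stressed rats, in replicate order. Stressed rats 1 and 3 were above the controls and the others lay among them, a difference of 0.29 (SE 0.24, adjusted p = 0.520, limma). The dimmer probe read -4.89, -5.90, -7.25 and -6.85 in controls and -6.44, -6.55, -7.25 and -6.61 in stressed rats. Its difference was -0.49 (SE 0.49, adjusted p = 0.580, limma). It was not well above background in stressed rat 3, and its 2 spots on control replicate 1, the highest rat, were 5.002 apart. The differences were 0.34 and -0.38 without control replicate 2.

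Jun, the partner that FOS proteins most often pair with, was read by a probe at chr5:115359410-115359469 on the minus strand (rn4). Its log2 signal was -1.30, -0.47, -1.52 and -1.32 in controls and -0.83, -1.25, -1.18 and -1.38 in stressed rats, in replicate order. The group means, -1.15 and -1.16, nearly coincided, and control replicate 2 was the highest of the 8 rats. The difference was -0.01 (SE 0.23, adjusted p = 0.987, limma), with a 95% confidence interval of -0.55 to 0.53. Without control replicate 2 it was 0.22 (SE 0.14, adjusted p = 0.258, limma).

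Junb, a JUN family member that often restrains c-JUN activity, had 1 spot, at chr19:24833225-24833284 on the plus strand (rn4). It read 0.30, -0.09, -0.02 and -0.05 in controls and 0.04, 0.09, -0.01 and 0.03 in stressed rats. Except for control 1, all rats lay within a narrow band around 0. The difference was 0.01 (SE 0.10, adjusted p = 0.979, limma), and its 95% confidence interval, -0.22 to 0.23, is 0.86-fold to 1.17-fold. It was -0.04 without control replicate 2.

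Egr1, also known as Zif268, is a transcription factor used like Fos to mark activated neurons. Its brighter probe, on 10 spots, lies at chr18:27347173-27347232 on the plus strand (rn4), 1115 bases downstream of the dimmer one at chr18:27346058-27346117. The sequence of the dimmer probe is given because it had the largest difference of all 12 member probes.
Egr1 dimmer probe: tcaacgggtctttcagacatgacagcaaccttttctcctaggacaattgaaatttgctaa
The brighter Egr1 probe read -0.56, -1.47, -0.79 and -1.04 in controls and -0.73, -0.59, -1.08 and -0.45 in stressed rats. The groups overlapped, with control replicate 2 lowest, and the difference was 0.25 (SE 0.21, adjusted p = 0.513, limma). Leaving out that rat gave 0.09 (SE 0.17, adjusted p = 0.736, limma). The dimmer Egr1 probe read -5.15, -3.34, -5.18 and -5.11 in controls and -4.23, -2.61, -2.90 and -1.91 in stressed rats. Controls 1, 3 and 4 were nearly equal, control replicate 2 was far above them, and 3 of 4 stressed rats exceeded all controls. The difference was 1.78 (SE 0.58, 95% confidence interval 0.44 to 3.12, adjusted p = 0.167, limma), a 3.44-fold higher mean signal, and the exact two-sided permutation p was 0.0571. Without control replicate 2 the groups did not overlap and the difference was 2.23 (SE 0.49, adjusted p = 0.0146, limma). The probes of this 1 gene thus gave differences of 0.25 and 1.78.

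Egr2, also known as Krox20, is needed for myelination by Schwann cells. Its probe, on 10 spots at chr20:21883940-21883999 on the minus strand (rn4), was near background, being well above it in 3 control rats and 1 stressed rat. It read -5.01, -6.84, -6.97 and -9.18 in controls and -7.76, -7.04, -6.31 and -7.59 in stressed rats. Control 1 was highest, control 4 lowest, and all stressed rats lay between them. The difference was -0.18 (SE 0.80, adjusted p = 0.912, limma), with a confidence interval of -2.03 to 1.67, and -0.12 without control replicate 2. The summed linear signal of the Schwann cell and nerve root markers other than Egr2, in multiples of the 75th percentile, was 72.5 in control 1, between 6.99 and 19.7 in the other controls, and between 6.74 and 21.5 in stressed rats. None of those 5 markers with a probe was called, none was at background on all arrays, and their part in the Egr2 signal was not tested.

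Nr4a1, also known as Nur77, was read by 10 spots at chr7:140020442-140020501 on the plus strand (rn4). Its log2 signal was -0.79, -1.39, -1.23 and -1.12 in controls and -0.73, -0.83, -0.78 and -1.29 in stressed rats. Stressed rats 1 and 3 were above all controls, while stressed rat 4 was second lowest of the 8. The difference was 0.22 (SE 0.17, adjusted p = 0.464, limma), and 0.14 without control replicate 2.

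Arc, the synaptic effector of the set, was read by 10 spots at chr7:112772025-112772084 on the minus strand (rn4) and had the smallest SE of the 12 probes. It read -1.78, -1.67, -1.79 and -1.72 in controls and -1.69, -1.57, -1.89 and -1.84 in stressed rats. The stressed rats spread to both sides of the controls. The difference was -0.01 (SE 0.09, adjusted p = 0.970, limma), and its 95% confidence interval, -0.21 to 0.20, runs from 0.865-fold to 1.15-fold. It was 0.016 without control replicate 2.

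Ier2, a small nuclear protein induced with Fos and Jun, was read by 10 spots at chr19:25160648-25160707 on the plus strand (rn4). It read -0.95, -0.56, -1.30 and -1.20 in controls and -0.99, -1.18, -0.99 and -1.18 in stressed rats. The stressed rats lay inside the control range, whose top was control replicate 2. The difference was -0.09 (SE 0.16, adjusted p = 0.773, limma), and 0.06 without control replicate 2. The signs of Fos, Jun, Junb, Arc and Ier2 all turned when that rat was left out.

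**Figure D2:**
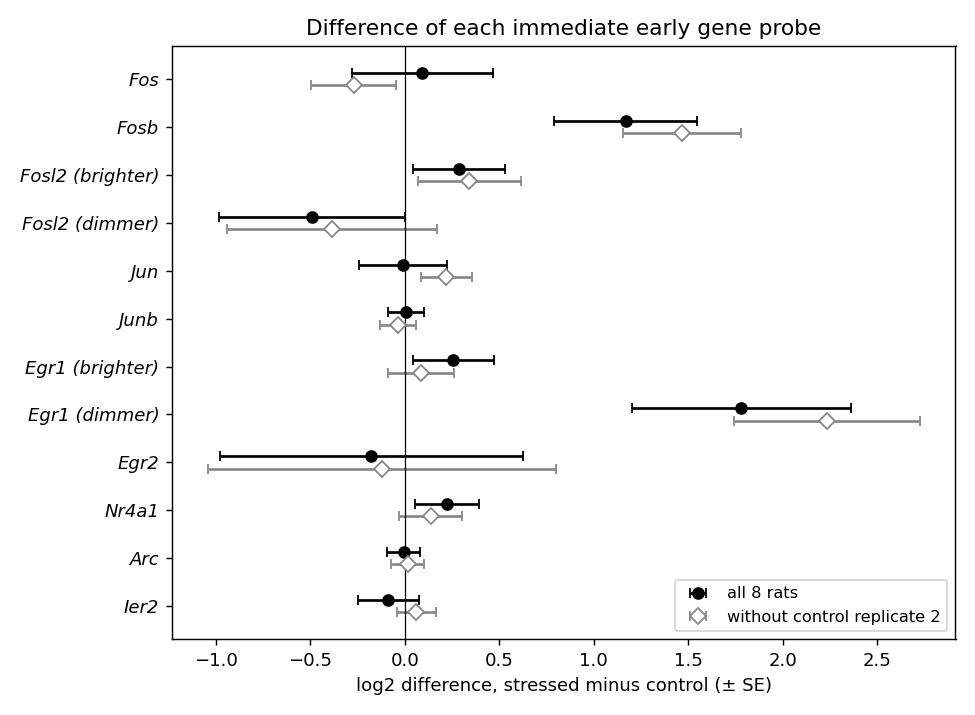
Log2 difference, stressed minus control, of each probe (horizontal axis) with its SE, from all 8 rats (filled) and without control replicate 2 (open diamonds). Leaving out that rat moved Fosb from 1.17 to 1.47 and the dimmer Egr1 probe from 1.78 to 2.23, and the remaining probes stayed between -0.49 and 0.34.

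Fosb and the dimmer Egr1 probe went with the 5′ minus 3′ index only as a split of controls 1, 3 and 4 from the other rats. For both probes, controls 1, 3 and 4, with the lowest index, had the lowest signals, and control replicate 2 read with the stressed rats. Of controls 1, 3 and 4, control 4 had the highest index and the highest signal of both probes. Among the stressed rats, rats 1 and 3 had nearly equal index but the highest and the lowest Fosb signal. Stressed rat 4, with the lowest index of its group, had the highest signal of the dimmer Egr1 probe. With the index as a covariate in the fit, the differences of Fosb and of the dimmer Egr1 probe were 0.42 (adjusted p = 0.521, limma) and 0.91 (adjusted p = 0.477, limma). The same fit called 3 members, where 10.1% of all probes were called. These were Fos, at 0.98 (adjusted p = 0.0615), the brighter Egr1 probe, at 0.70 (adjusted p = 0.0785), and Jun, at -0.55 (adjusted p = 0.0944), all by limma. In that fit control replicate 2 is the only control with an index near those of the stressed rats, and it held the extreme signal among controls for each of the 3 genes. The index and the group cannot be told apart in the other 7 rats.

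**Figure D3:**
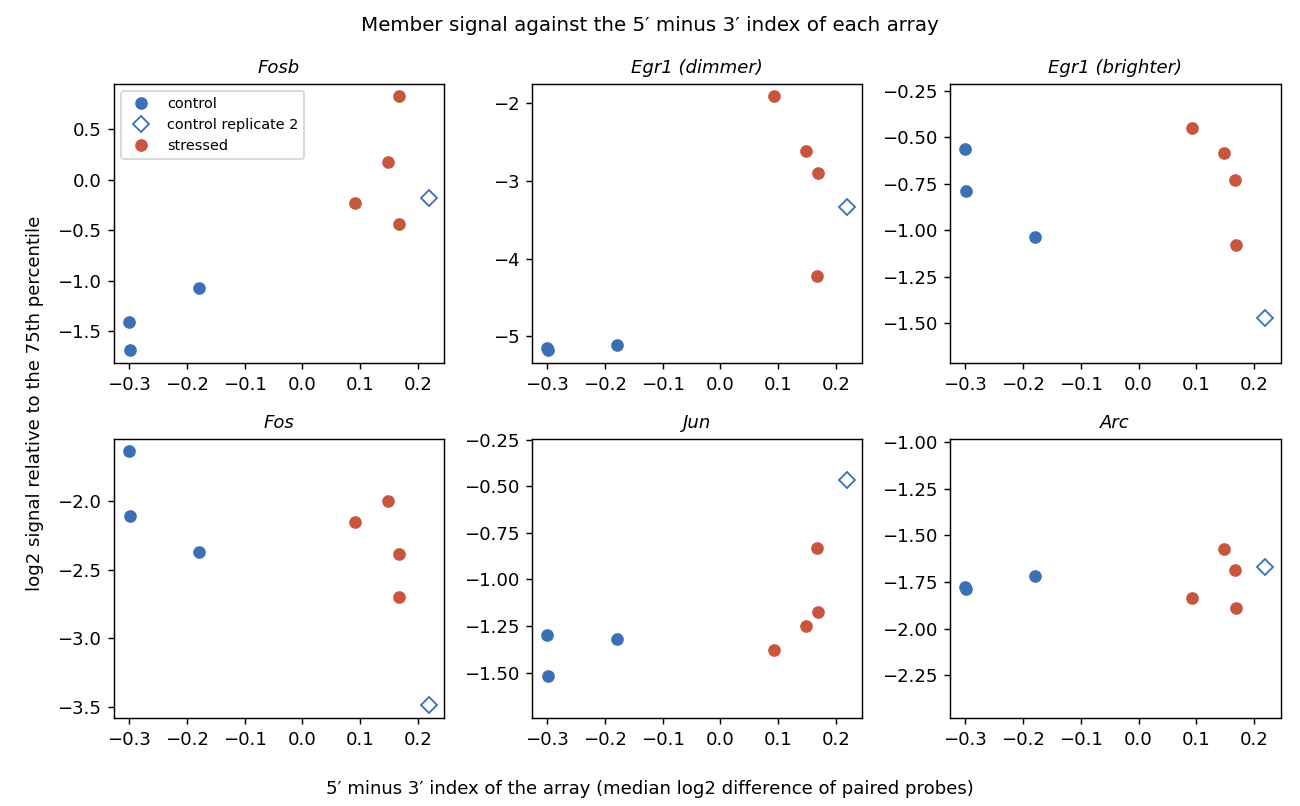
Log2 signal relative to the 75th percentile (vertical axes, a separate scale in each panel) against the 5′ minus 3′ index of the array (horizontal axes) for 6 member probes in 8 rats; the open diamond is control replicate 2. For Fosb and the dimmer Egr1 probe control replicate 2 lies with the stressed rats, whereas for Fos and the brighter Egr1 probe it is the lowest rat and for Jun the highest.

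The members did not vary together across rats as 1 block. Over the 45 pairs of genes and 8 rats, Pearson's r ran from -0.79 to 0.90, with a median of 0.14. Without control replicate 2 the median was 0.28, and single pairs moved either way. Nr4a1 and Ier2 went from -0.12 to 0.81, and Nr4a1 and Fos from 0.44 to -0.05. Jun and Ier2 varied together (r = 0.90, exact permutation p = 0.00429, adjusted p = 0.0965 over 45 pairs; Spearman's rho = 0.76, exact permutation p = 0.0368, adjusted p = 0.516). So did Fos and the brighter Egr1 probe (r = 0.90, exact permutation p = 0.00337, adjusted p = 0.0965; rho = 0.76, exact permutation p = 0.0368, adjusted p = 0.516). Without control replicate 2, r was 0.68 for the first pair and 0.74 for the second. Without the 2 rats farthest from the median, of Ier2 in the first pair and of Egr1 in the second, r was 0.52 and 0.57. That choice narrows the range of 1 gene, which by itself tends to lower r, so no conclusion is drawn from it. The dimmer Egr1 probe gave r = -0.26 with Fos over 8 rats, and r = 0.10 with the brighter Egr1 probe. The likeness to Fos therefore holds for the brighter Egr1 probe and not for both. Fos and Jun ran in opposite senses (r = -0.79 over 8 rats, exact permutation p = 0.0266, adjusted p = 0.387), which did not pass the adjustment. Without control replicate 2, the lowest rat for Fos and the highest for Jun, r was -0.37. Of 13407 other genes, the mean centred profile of the 9 members well above background on all arrays was most like those of Bahd1 (r = 0.99), RT1-DOb (0.96), Catsper4 (0.95), Slc25a30 (0.94) and Zc3h15 (0.94), over 8 rats. These are the highest of 13407 values over only 8 rats, and whether they exceed chance was not tested.

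Other early response genes were counted from a list of 62, of which 60 were tested, since Npas4 and Ptgs2 were too dim. Of these, each by its brightest probe, 5 rose and 2 fell, and 53 were not called, where 3.74% of all probes were called. The median difference of the 60 was 0.05 beside 0.06 over all probes, which include dimmer probes of a gene. No AP-1 or ATF partner (7 tested), no relative or cofactor of EGR and NR4A (6 tested) and no gene of the phosphatase and RNA decay feedback group (11 tested) was called. Of 12 activity-regulated effectors, 3 rose and 1 fell, and of 24 growth and stress response genes, 2 rose and 1 fell, beside the same 3.74%.

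Sgk1, the serum and glucocorticoid regulated kinase, rose most. It read -2.15, -1.37, -2.38 and -1.39 in controls and -0.28, -0.48, -0.24 and -0.98 in stressed rats. The groups did not overlap, and the difference was 1.33 (SE 0.28, adjusted p = 0.0772, limma). It was 1.48 (adjusted p = 0.00843, limma) without control replicate 2, and 0.84 (adjusted p = 0.148, limma), no longer called, with the index as covariate.

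Nrn1 (neuritin), a promoter of neurite growth, had a mean of -0.56 ± 0.21 in controls and 0.10 ± 0.08 in stressed rats (SD, n = 4), a difference of 0.66 (adjusted p = 0.0565, limma). Nptx2, a secreted pentraxin that clusters AMPA receptors, rose by 0.59 (adjusted p = 0.0977, limma). Sik1, a kinase that restrains CREB coactivators, rose by 0.35 (adjusted p = 0.0664, limma), and its other probe differed by 0.78 (adjusted p = 0.394, limma). Mcl1, a survival protein of the BCL2 family, rose by 0.38 (adjusted p = 0.0936, limma). These 4 genes were named because they were called, and for all 4 the groups did not overlap, as for 12.1% of all probes.

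Vgf, a neuropeptide precursor, fell by 0.28 (adjusted p = 0.0927, limma), and its controls spanned 3.50 to 3.68 against 3.25 to 3.33 in stressed rats. Csrnp1, a nuclear protein of the early growth response, fell by 0.52 (adjusted p = 0.0900, limma), while its other probe differed by 0.69 in the opposite direction (adjusted p = 0.239, limma). Without control replicate 2 all 7 genes stayed called, at differences of 0.62 for Nrn1, 0.66 for Nptx2, 0.36 for Sik1, 0.44 for Mcl1, -0.25 for Vgf and -0.52 for Csrnp1, among 26 calls of 60 where 42.4% of all probes were called. Leaving out any other rat left none of the 60 called, while the differences kept their direction, ranging from 1.14 to 1.49 for Sgk1, 0.62 to 0.77 for Nrn1, 0.33 to 0.38 for Sik1 and -0.31 to -0.25 for Vgf over the 8 omissions. With the index as covariate 3 genes of the list were called, Nrn1 at 0.78, Sik1 at 0.31 and Vgf at -0.35, where 10.1% of all probes were called.

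The genes below had the largest difference of their subgroup without being called, and in Jdp2 and Nab1 control replicate 2 read like the stressed rats. Jdp2, a JUN dimerization partner, read -7.56, -3.79, -7.16 and -6.61 in controls and between -4.48 and -3.72 in stressed rats, a difference of 2.33 (adjusted p = 0.167, limma). Nab1, a corepressor of EGR proteins, differed by 1.17 (adjusted p = 0.165, limma), with control replicate 2 at -6.17 and the other controls between -7.83 and -7.35. Zfp36l1, an mRNA decay factor, differed by 0.56 (adjusted p = 0.268, limma), and by 0.64 without control replicate 2. When control replicate 2 was left out, Jdp2 was called at 3.16 (adjusted p = 0.000747, limma) and Nab1 at 1.51 (adjusted p = 0.00550, limma). With the index as covariate the difference of Jdp2 was 0.36 and that of Nab1 0.30. With normexp background correction it was 0.78 for Jdp2 and 0.22 for Nab1, neither called. Nab1 was dim and was not well above background on all 8 arrays.

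Of 34 genes of the pathways that switch immediate early genes on, 31 had a probe under the listed name, and 1 was called, a share near the 3.74% of all probes. Rps6ka3, which encodes the kinase RSK2 acting between ERK and CREB, rose by 0.35 (SE 0.07, adjusted p = 0.0679, limma), and its other probe differed by 0.07 (adjusted p = 0.669, limma). Leaving out any rat other than control replicate 2 left none called. Leaving out control replicate 2 gave 17 calls of 31, where 42.4% of all probes were called, and Rps6ka3 was then 0.37. Elk1, an SRF partner, differed by 1.10 (adjusted p = 0.161, limma), with control replicate 2 at -4.29, the other controls between -5.94 and -5.54 and the stressed rats between -4.45 and -4.18. It was called at 1.48 (adjusted p = 0.000762, limma) without control replicate 2, and was 0.21 (adjusted p = 0.283, limma) with the index as covariate. With normexp background correction Elk1 differed by 0.50 and was not called. Among the other groups the largest differences were 0.35 for the CREB coactivator Crebbp (adjusted p = 0.504, limma), -0.22 for Mef2d (adjusted p = 0.540, limma) and 0.50 for the protein kinase A subunit Prkacb (adjusted p = 0.379, limma). Once control replicate 2 was left out, Crebbp was called at 0.60 (adjusted p = 0.0641, limma) and Prkacb at 0.83 (adjusted p = 0.00448, limma), and both were below 0 with the index as covariate.

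**Figure D4:**
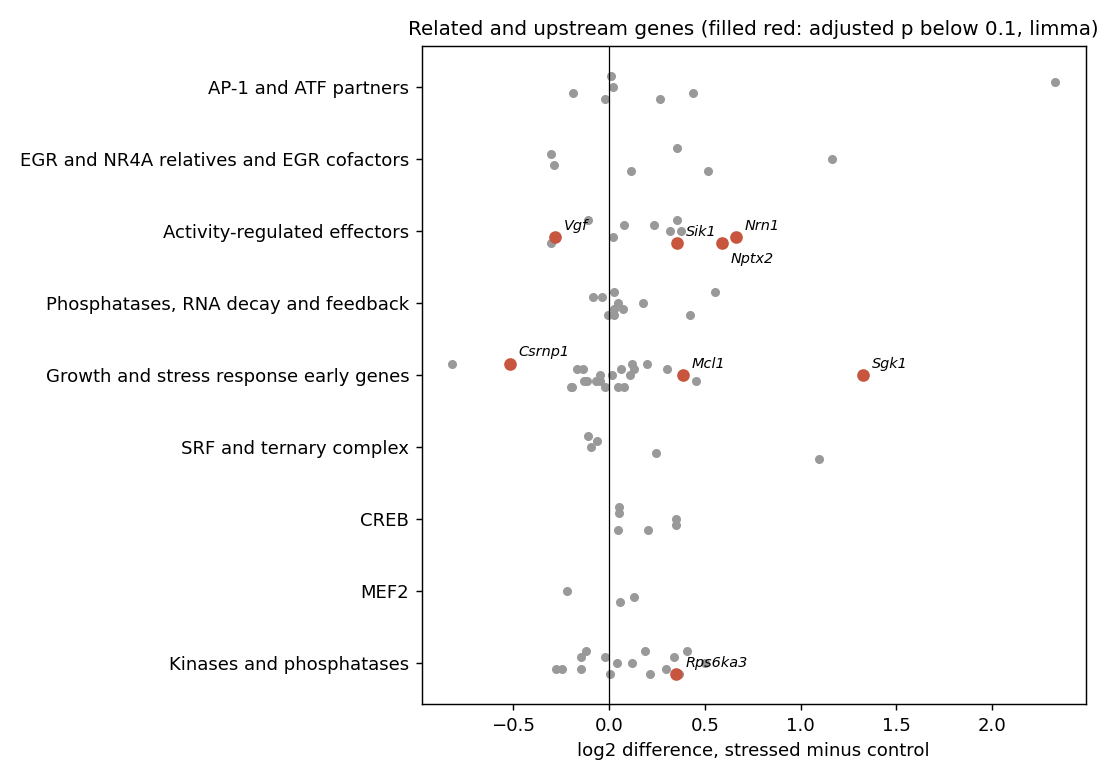
Log2 difference, stressed minus control (horizontal axis), of 60 related early response genes (upper 5 rows) and 31 upstream pathway genes (lower 4 rows), each point 1 gene by its brightest probe; vertical offsets within a row only separate the points. The 8 genes with an adjusted p below 0.1 are red and named, Sgk1 at 1.33 the farthest to the right among them.

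The tissue carried the markers of spinal cord, with all 13 neuronal, 10 astrocyte and 10 oligodendrocyte markers that had a probe tested. The summed linear signal of the neuronal markers, in multiples of the 75th percentile, ranged from 239.6 to 252.6 in controls and from 236.8 to 272.9 in stressed rats. The astrocyte sum ranged from 246.5 to 307.0 in controls and from 290.0 to 342.4 in stressed rats, the oligodendrocyte sum from 236.5 to 345.3 and from 258.5 to 354.1, and the microglial sum from 24.9 to 26.6 and from 22.9 to 26.7. Of these lists 1 of 13 neuronal and 1 of 10 oligodendrocyte markers was called, and no astrocyte or microglial marker, where 3.74% of all probes were called. Eno2, the neuronal one, fell by 0.37 (adjusted p = 0.0649, limma), while the median difference of the neuronal markers was 0.07. Mog, the oligodendrocyte one, rose by 0.90 (adjusted p = 0.0721, limma), and the median of its list was 0.43. The part of cell composition in the member values was not tested.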

How the data were processed

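Total RNA from each rat was labelled with Cy3 and hybridised to an Agilent SurePrint G3 Rat GE 8x60K array, and images were read with Agilent Feature Extraction 10.7.3.1. The deposited intensity values are the scanner's processed signal, background-subtracted by that software, and the value table deposited by the authors holds the same intensity to within 0.05. Probe positions are those of the array files (rn4). Spots flagged as outliers were left out, each array's 75th percentile was taken off the log2 signals, replicate spots were averaged, and probes well above background on at least 4 of 8 arrays were tested (23677 of 30367). Groups were compared with limma 3.58.1 in R 4.3.3 (lmFit and eBayes, no covariate), Benjamini-Hochberg adjusted over all tested probes. The scripts were tested on simulated data. The number of arrays limits the precision.

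The methods name dChip and give no test, so limma was used. All members were named, the brightest tested probe standing for each gene and the others reported beside it. Of the related and upstream lists, the called genes and the largest difference per subgroup were named, and the 5 genes most like the members. The members and lists were chosen with earlier results of these data known. The labels number the rats within groups, with nothing said of shared litters or days. Same-numbered rats deviated together with correlations of 0.10, 0.12, -0.09 and 0.31, so the numbers were not taken as pairs. They shared a slide column, which the main fit leaves out and the replicate block takes in.

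Alternatives were normexp background correction (offset 50), quantile normalization, the value table, no filter, detection required on all 8 arrays, eBayes with trend and robust options, ordinary least squares without moderation, array weights, a replicate block, 1 probe per gene, the mean of a gene's probes, the 5′ minus 3′ index as covariate, and leaving out each rat.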

Additional observations from a re-analysis of the deposited data

Results flagged for a closer look

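The dimmer Egr1 probe in control replicate 2 stood apart from the other controls, with a gap to the nearest of them equal to 0.96 of the whole control range (-3.34 against -5.18 to -5.11). Of 24 sets of 4 rats examined over the member probes, this was the only one past the 95% limit of Dixon's ratio, and chance passes that limit in about 1 set in 20.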

How the results depend on the processing

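Nr4a1, Fosb and both Egr1 probes kept their direction under all alternatives run. Over 20 alternatives and the 12 member probes and 15 list genes named, 532 values were recomputed: 407 kept direction and side of the threshold, 80 lost a call, 18 gained one and 27 changed sign. The causes were not tested.

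The 885 calls became 215 with normexp, 3010 without a filter, 11983 with array weights, 2393 with the index as covariate, and 0 to 10038 on leaving out a rat. The replicate block is also the slide column, although the labels give no pairing of the rats. With that block, limma called 0 probes (4292 at an unadjusted p below 0.05), and 0 related and 0 upstream genes. Without control replicate 3, stress replicate 1 or stress replicate 2, limma also called 0, with 3003, 3421 and 3467 at an unadjusted p below 0.05. Member genes called were 1 with array weights, 3 with the covariate and 0 to 1 on leaving out a rat. Related genes called, 7 in the main setting, were 2 with normexp, 32 with array weights, 3 with the covariate and 0 to 26 on leaving out a rat. Upstream genes, 1 in the main setting, were 0 with normexp or quantile normalization, 22 with array weights, 4 with the covariate and 0 to 17 on leaving out a rat.

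Array weights, which gave control replicate 2 a weight of 0.11, took Fosb to 1.602, the dimmer Egr1 probe to 2.18, Arc to 0.070, Jun to 0.24, Ier2 to 0.080, the dimmer Fosl2 probe to 0.0071 and Fos to -0.11. The covariate took Fos to 0.98, the brighter Egr1 probe to 0.70, Jun to -0.55, Egr2 to 0.056, Crebbp to -0.21, Mef2d to 0.073 and Prkacb to -0.25. Egr2 was 0.084 with normexp. With the probes of a gene averaged, Fosl2 was -0.10 and Csrnp1 0.083. On leaving out a rat, Fosb ranged from 0.92 to 1.47, the dimmer Egr1 probe from 1.45 to 2.23, Fos from -0.27 to 0.35, Jun from -0.13 to 0.22, Junb from -0.036 to 0.093, Arc from -0.065 to 0.041, Ier2 from -0.19 to 0.061 and Egr2 from -0.90 to 0.49. Signal over background limits Egr2 and Fosl2, and among the list genes Nab1 and Crebbp. With normexp Jdp2 fell to 0.78, Nab1 to 0.22 and Elk1 to 0.50.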
